A study of Mus musculus with 6 samples.

Results

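The genes described are 10 vasoactive mediator genes of mouse endothelium, the cell layer that lines blood vessels. They were taken by name from the 55232 features of an RNA-seq count table: Nos3, Edn1, Ece1, Adm, Ramp2, Calcrl, Ptgs1, Ptgs2, Ptgis and Ace. All 10 names were found. The samples were endothelial cells of mouse lung microvessels, given as a cell line in the labels, grown for 12 h in the bottom compartment of a 2-chamber culture. In the repletion group, 3 samples had shared the culture with TCMK-1, a line of kidney tubule epithelium from mouse, that had been depleted of ATP and then repleted, a condition the labels abbreviate as IR. In the control group, 3 samples had shared it with untreated TCMK-1 cells. The comparison asks how lung endothelial cells change beside kidney cells recovering from energy loss, in a study whose title concerns lung injury after renal ischemia-reperfusion. The labels give no passage, clone or culture number, so p-values reflect the scatter among these samples alone, and it may be technical.

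Endothelial cells set the tone of the smooth muscle around a vessel by releasing short-lived mediators. Nitric oxide, made by the endothelial synthase NOS3, and prostacyclin, made from arachidonic acid by the cyclooxygenases PTGS1 and PTGS2 and then PTGIS, relax it. Adrenomedullin, a peptide that acts through the receptor CALCRL paired with RAMP2, also relaxes it and tightens the endothelial barrier. Endothelin-1, encoded by Edn1 and released from its precursor by the protease ECE1, is a strong constrictor. ACE, on the surface of lung capillary endothelium, converts angiotensin I to the constrictor angiotensin II and breaks down bradykinin.

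Edn1 was higher in the repletion group by 3.93-fold, and Adm and Ptgs2 were lower, at 0.535 and 0.705 times the control level. Nos3, Ece1, Ramp2, Calcrl, Ptgs1 and Ptgis did not pass the test, and Ace had too few reads to be tested. A gene is called when its adjusted p, from edgeR's quasi-likelihood test with Benjamini-Hochberg adjustment over all 13804 tested features, is under 0.05. By this rule 1 of the 9 tested members rose, beside 20.5% of all tested features, and 2 fell, beside 19.2%, so these counts show nothing particular to the members as a group. With the dependence on gene length taken out, 2161 features rose and 3450 fell, against 2830 and 2654 without it, and the same 3 members were called. The authors' deposited table gave an adjusted p of 4.5e-16 for Edn1, 5.8e-11 for Adm and 0.00378 for Ptgs2, and values between 0.171 and 0.965 for the other members.

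**Figure D1:**
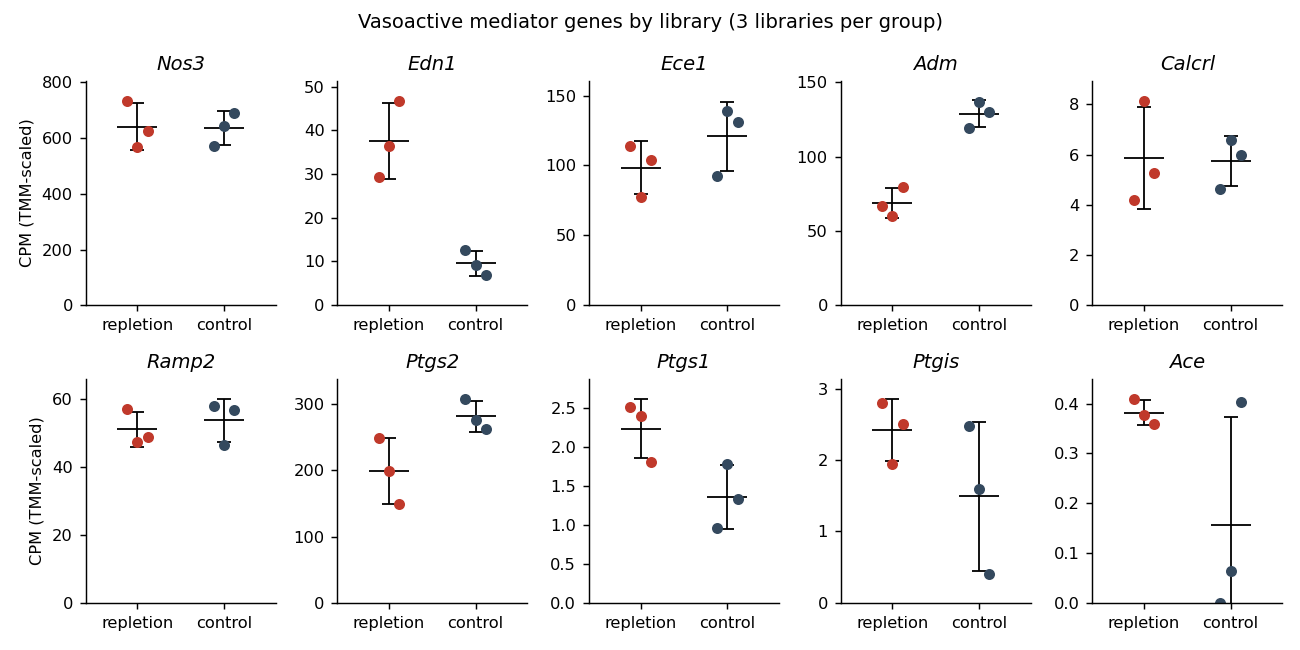
Expression of the 10 members in each library, as TMM-scaled CPM on linear axes from 0; points are libraries, horizontal lines the means and error bars the SD over 3 libraries (the lower arm for control Ace is cut at 0). The repletion libraries lie above every control library for Edn1 and below every control library for Adm and Ptgs2, while the groups overlap for Nos3, Ece1, Calcrl, Ramp2 and Ptgis.

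The libraries held 15582349 to 17817618 counts. Levels are counts-per-million values (CPM) scaled by trimmed mean of M-values (TMM), with SD over 3 samples unless stated otherwise. The cells carried general endothelial markers: all 15 endothelial marker genes had counts, and Pecam1 stood at 749 ± 77.7 CPM in the repletion group and 749 ± 47.4 CPM in the control group. Of these 15 markers, 7 rose (Icam2, Erg, Robo4, Eng, Tek, Flt1 and Egfl7) and 2 fell (Esam and Vwf) by edgeR's test. Of all tested features, 20.5% rose and 19.2% fell. The 15 markers had a median log2 fold change of 0.39. They summed to 2748 to 3199 CPM in repletion libraries and 2501 to 2802 CPM in control libraries. The 11 lung capillary markers summed to 1318 to 1388 CPM in repletion libraries and 672 to 699 CPM in control libraries. Most of each sum was Apln, at 1205 ± 35.9 CPM in the repletion group and 567 ± 24.5 CPM in the control group. Of the 7 tested lung capillary markers, Apln and Tbx3 rose, Kit fell and 4 did not pass, beside the same 20.5% and 19.2%. Their median log2 fold change was -0.32. Car4 and Ednrb had no count in any library. Aplnr had 5, 0 and 0 counts in repletion libraries and 0, 3 and 0 in control libraries. Summed tubular markers reached 30.9 to 36.9 CPM in repletion libraries and 18.3 to 20.7 CPM in control libraries. Without Cubn, which rose, the sums were 17.0 to 21.8 CPM in repletion libraries and 14.9 to 17.7 CPM in control libraries. Of the 16 tubular markers, 12 had counts, and Epcam, Krt18, Slc34a1 and Umod had none. Pax2 stood at 6.49 ± 3.22 CPM in the repletion group and 5.88 ± 1.21 CPM in the control group. Aqp1 stood at 7.86 ± 2.09 CPM and 7.82 ± 1.81 CPM in the same order. Leukocyte markers summed to 223 to 311 CPM in repletion libraries and 379 to 417 CPM in control libraries. Nearly all of it was Cd68, which fell (log2 fold change -0.63, edgeR adjusted p 4.8e-04). The pan-leukocyte gene Ptprc had 4, 0 and 0 counts in repletion libraries and none in control libraries. Lymphatic markers summed to 123 to 138 CPM in repletion libraries and 78.2 to 103 CPM in control libraries. Of the 4 tested lymphatic markers, Reln, Lyve1 and Flt4 rose and Pdpn fell by edgeR's test, beside the same 20.5% and 19.2%. Mural and fibroblast markers summed to 23.0 to 33.8 CPM in repletion libraries and 25.8 to 28.0 CPM in control libraries, and lung epithelial markers to at most 1.93 CPM in repletion libraries and 1.73 CPM in control libraries. Sums of markers are of CPM without TMM scaling. The part of these markers in the results below was not tested. In bulk RNA, fewer cells of a type and less RNA per cell cannot be told apart.

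The sequence around the start of the 3 called genes is shown because they include both directions of change. RefSeq windows on GRCm38.p6, from 250 bases before to 50 bases after a gene start, were matched by symbol for 7 of the 10 members, with 11 windows in all. Capitals mark matches on either strand to 6 short motifs: the hypoxia response core ACGTG, the cAMP response half-site TGACG, the GATA motif AGATAA, the TEAD motif GGAATG, the TATA box TATAAA and the KLF motif CACCC.
Edn1, chr13:42301226-42301525, plus strand: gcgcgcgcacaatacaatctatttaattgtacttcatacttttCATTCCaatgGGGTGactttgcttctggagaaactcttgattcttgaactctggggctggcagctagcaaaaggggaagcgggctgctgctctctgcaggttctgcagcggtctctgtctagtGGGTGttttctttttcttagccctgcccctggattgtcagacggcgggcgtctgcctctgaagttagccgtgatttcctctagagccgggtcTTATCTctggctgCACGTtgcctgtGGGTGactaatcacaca
Adm, chr7:110627407-110627706, plus strand: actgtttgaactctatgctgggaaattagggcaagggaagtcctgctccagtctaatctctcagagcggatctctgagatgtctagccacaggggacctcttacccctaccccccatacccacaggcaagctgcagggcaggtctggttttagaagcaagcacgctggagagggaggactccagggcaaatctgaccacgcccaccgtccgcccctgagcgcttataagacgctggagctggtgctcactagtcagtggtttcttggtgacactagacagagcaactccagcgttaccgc
Ptgs2, chr1:150099781-150100080, plus strand: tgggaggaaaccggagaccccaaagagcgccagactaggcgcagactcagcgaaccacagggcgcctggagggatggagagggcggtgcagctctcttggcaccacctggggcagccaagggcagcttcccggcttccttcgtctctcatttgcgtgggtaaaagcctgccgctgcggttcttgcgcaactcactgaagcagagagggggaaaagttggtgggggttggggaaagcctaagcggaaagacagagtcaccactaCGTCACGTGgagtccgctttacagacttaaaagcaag

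The Edn1 window held 1 match each to the TEAD, GATA and hypoxia response letters and 3 to the KLF letters. The Ptgs2 window held a match to the cAMP response half-site that overlaps a palindrome, which counts as 2 matches to the hypoxia response core. The Adm window held none of the 6 motifs. Among all 32851 RefSeq windows of this length, 19.6% held ACGTG, 20.8% TGACG, 11.2% AGATAA, 14.7% GGAATG, 13.6% TATAAA and 57.5% CACCC. These are matches of letters, and no binding was measured.

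Endothelin-1 RNA was the member that changed most. Edn1 (ENSMUSG00000021367, chromosome 13, 42301476 to 42307990 on GRCm38, plus strand, 5 exons) had 502, 580 and 778 counts in repletion libraries, against 198, 146 and 118 counts in control libraries. The lowest repletion library, at 29.3 CPM, was above the highest control library, at 12.6 CPM. Edn1 averaged 37.5 ± 8.68 CPM in the repletion group and 9.55 ± 2.91 CPM in the control group, a log2 fold change of 1.97 ± 0.21 (SE; 95% interval 1.53 to 2.42), with an edgeR adjusted p of 2.5e-06. Of the 2830 features that rose, 12.6% had a larger log2 fold change than Edn1. With each library left out in turn, the log2 fold change lay between 1.77 and 2.20 and the call held every time. The annotated antisense gene Gm47118 shares 35 exonic bases with Edn1 and had 1 count in all.

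The gene of the converting enzyme did not pass the test. Ece1 (chromosome 4, 137862237 to 137965229) had 114, 77.5 and 104 CPM in repletion libraries, against 92.6, 139 and 131 CPM in control libraries. The groups overlap through control library 1, the lowest of its group. The log2 fold change was -0.29 ± 0.15 (SE; 95% interval -0.62 to 0.03), with an edgeR adjusted p of 0.135. Ece1 passed as lower without control replicate 1 (log2 fold change -0.47, edgeR adjusted p 0.0177), without repletion replicate 1 (-0.42, 0.0310) and with no filter on low counts (-0.33, 0.0263). Its adjusted p was 0.0177 to 0.429 across the 16 alternatives.

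Few other genes of the endothelin list had enough reads to be tested. Of its 9 genes other than Edn1 and Ece1, 2 were tested, the proprotein convertase genes Furin and Pcsk7, and 0 passed in either direction by edgeR's test (unadjusted p 0.239 for Furin and 0.342 for Pcsk7), and 0 by DESeq2 or limma-voom. Of all tested features 20.5% rose and 19.2% fell, so a count of 0 of 2 says nothing of the list. Ednrb, the gene of the endothelin receptor found on endothelium, had no count in any of the 6 libraries, and a count of 0 allows up to 3 counts, or 0.168 to 0.193 CPM depending on the library. Ednra, the receptor gene of smooth muscle, had 5, 0 and 3 counts in repletion libraries and none in control libraries. Edn2, another endothelin gene, had 0, 1 and 3 counts in repletion libraries and none in control libraries.

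Adrenomedullin RNA was lower, and the RNAs of its receptor did not pass the test. Adm (ENSMUSG00000030790, chromosome 7, 110627661 to 110629820, plus strand, 4 exons) had 1148, 951 and 1324 counts in repletion libraries, against 1867, 2157 and 2249 counts in control libraries. The highest repletion library, at 79.3 CPM, was below the lowest control library, at 119 CPM. Adm averaged 68.7 ± 9.82 CPM in the repletion group and 128 ± 9.11 CPM in the control group, a log2 fold change of -0.90 ± 0.12 (SE; 95% interval -1.15 to -0.65), with an edgeR adjusted p of 2.0e-05. Of the 2654 features that fell, 19.1% had a larger fall than Adm. With each library left out in turn, the log2 fold change lay between -1.02 and -0.82 and the call held every time.

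Calcrl (chromosome 2, 84330626 to 84425411, minus strand), the receptor that carries the peptide binding site, was scarce. It had 4.20, 8.12 and 5.27 CPM in repletion libraries, against 4.64, 6.60 and 6.0 CPM in control libraries, and the repletion values lay on both sides of the control values. Its log2 fold change was 0.03 ± 0.27 (SE; 95% interval -0.55 to 0.60), with an edgeR adjusted p of 0.951, and its sign changed under 7 of 16 alternatives.

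Ramp2 (chromosome 11, 101246028 to 101259546), the accessory protein that makes CALCRL an adrenomedullin receptor, had 57.0, 47.5 and 48.9 CPM in repletion libraries, against 57.9, 46.6 and 56.9 CPM in control libraries. The groups overlap fully. The log2 fold change was -0.07 ± 0.13 (SE; 95% interval -0.34 to 0.19), with an edgeR adjusted p of 0.675. Of the 3301 exonic bases of Ramp2, 1103 are shared on the same strand with Vps25, a gene of the endosomal sorting machinery. Vps25 itself was listed with 1, 0 and 6 counts in repletion libraries and 0, 6 and 1 counts in control libraries, so reads of the shared bases cannot be assigned and the Ramp2 level is uncertain.

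Of 15 further adrenomedullin pathway genes, 9 were tested, 0 rose and 1 fell by edgeR's test, beside 20.5% and 19.2% of all tested features; 0 rose by DESeq2 or limma-voom or at an unadjusted p under 0.05. The one that fell was Adcy6, an adenylyl cyclase that makes cAMP below such receptors, at 70.0 ± 2.32 CPM in the repletion group and 91.2 ± 11.9 CPM in the control group, with a log2 fold change of -0.38 and an edgeR adjusted p of 0.0139. It did not pass without control replicate 2 (0.0834) or repletion replicate 3 (0.0557). Its adjusted p was 0.00157 to 0.0834 across the 16 alternatives, and 605 of its exonic bases are shared with an antisense gene. The median log2 fold change of the 9 tested genes was 0.25, beside 0.00 over all tested features. Ramp3, the other accessory protein for adrenomedullin, had 3, 4 and 2 counts in repletion libraries and 14, 4 and 10 counts in control libraries and was not tested.

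**Figure D2:**
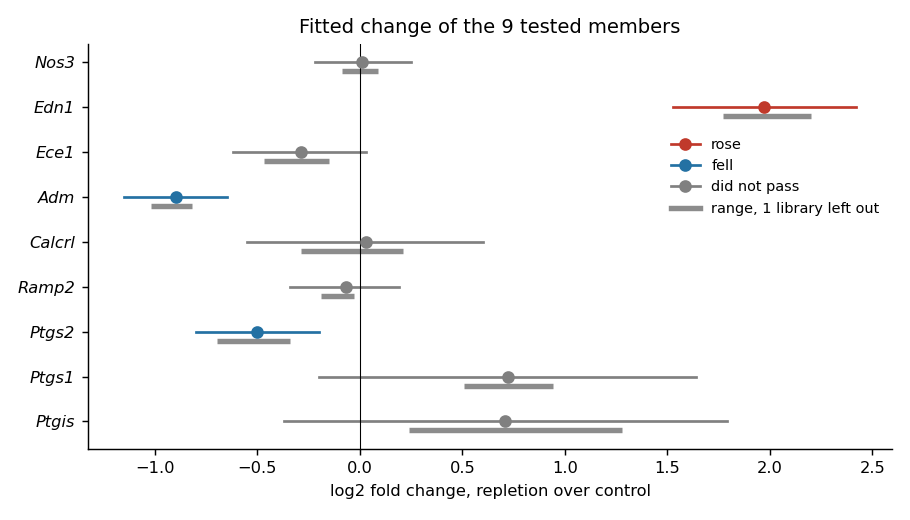
Log2 fold change, repletion over control, of the 9 tested members; points are fitted values, thin lines 95% intervals from edgeR's quasi-likelihood fit, and thick grey bars the range of fitted values with each of the 6 libraries left out in turn. Edn1 stands at 1.97, Adm at -0.90 and Ptgs2 at -0.50, and the intervals of the other 6 members include 0.

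Among the prostanoid genes, the inducible cyclooxygenase was lower and the constitutive one was scarce. Ptgs2 (ENSMUSG00000032487, chromosome 1, 150100031 to 150108227, plus strand, 10 exons) had 4244, 3160 and 2482 counts in repletion libraries, against 4833, 4333 and 4537 counts in control libraries. The highest repletion library, at 248 CPM, was just below the lowest control library, at 262 CPM, and the repletion libraries were spread more widely. Ptgs2 averaged 198 ± 49.5 CPM in the repletion group and 281 ± 23.6 CPM in the control group, a log2 fold change of -0.50 ± 0.14 (SE; 95% interval -0.80 to -0.20), with an edgeR adjusted p of 0.00956. The call was lost without repletion replicate 3, the lowest library (log2 fold change -0.34, edgeR adjusted p 0.0695). Its adjusted p was 2.0e-05 to 0.0695 across the 16 alternatives. Of the features that fell, 63.5% had a larger fall than Ptgs2.

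Ptgs1 (chromosome 2, 36230426 to 36252272), the constitutive cyclooxygenase, had 43, 38 and 30 counts in repletion libraries, against 15, 28 and 23 counts in control libraries. The groups are separate by a small margin, at 1.80 CPM for the lowest repletion library and 1.78 CPM for the highest control library. Groups that do not overlap were found with the repletion group higher for 25.0% of all tested features, among them Edn1 and Ptgs1, and with it lower for 25.4%, among them Adm and Ptgs2. The log2 fold change of Ptgs1 was 0.72 ± 0.44 (SE; 95% interval -0.20 to 1.64), with an edgeR adjusted p of 0.205.

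Ptgis (chromosome 2, 167191805 to 167240604, minus strand), the prostacyclin synthase, had 48, 31 and 42 counts in repletion libraries, against 39, 25 and 7 counts in control libraries. Control library 1 lay within the repletion range in CPM, control library 2 lay below it, and control library 3 was the lowest, at 0.404 CPM. The log2 fold change was 0.71 ± 0.51 (SE; 95% interval -0.37 to 1.79), with an edgeR adjusted p of 0.292. It was 0.24 without control replicate 3 and 1.28 without control replicate 1, and passed under none of the 16 alternatives.

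Other prostanoid genes moved both ways. Of 24 genes of this list besides Ptgs1, Ptgs2 and Ptgis, 12 were tested, 3 rose and 4 fell, beside 20.5% and 19.2% of all tested features, with a median log2 fold change of 0.02. Genes upstream of the cyclooxygenases went in opposite directions. Pla2g4a, the cytosolic phospholipase that frees arachidonic acid, fell, at 18.1 ± 1.08 CPM in the repletion group and 27.3 ± 1.68 CPM in the control group (log2 fold change -0.59, edgeR adjusted p 0.00297). Its relative Pla2g4c rose, with 52, 31 and 45 counts in repletion libraries and 2, 4 and 0 counts in control libraries (log2 fold change 4.29, edgeR adjusted p 1.6e-04). The size of that rise rests on few control reads: it was 5.21 without control replicate 2 and 3.69 without control replicate 3.

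The prostaglandin carriers were higher. Slco2a1, the importer that clears prostaglandins from outside the cell, had 245, 143 and 167 counts in repletion libraries, against 58, 49 and 72 counts in control libraries, and rose by 1.6 ± 0.24 (SE) on the log2 scale, with an edgeR adjusted p of 8.6e-05. With the length trend taken out its log2 fold change was 1.21. Abcc4, an exporter of prostaglandins and cyclic nucleotides, rose by 0.61 on the log2 scale (edgeR adjusted p 0.00305). Of the downstream synthases, 3 fell. Akr1b3, an aldose reductase with prostaglandin F synthase activity, had a log2 fold change of -0.48 (edgeR adjusted p 0.00171), Ptgds one of -0.54 (0.0139) and Ptges2 one of -0.42 (0.0186). Ptges3, a further prostaglandin E synthase, had a log2 fold change of 0.26 and did not pass (edgeR adjusted p 0.0518), although its groups do not overlap. Ptges, the inducible prostaglandin E synthase, stood at 1.86 ± 0.571 CPM in the repletion group and 2.25 ± 0.812 CPM in the control group and did not pass (edgeR adjusted p 0.649). Ptgir, the prostacyclin receptor, stood at 1.11 ± 0.263 CPM in the repletion group and 0.576 ± 0.606 CPM in the control group and did not pass (edgeR adjusted p 0.342). Hpgd, the enzyme that inactivates prostaglandins, had no count in any library. Abcc4, Ptgds, Ptges2 and Ptges3 were named after their values were seen.

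Nitric oxide synthase RNA was abundant in every library. Nos3 (ENSMUSG00000028978, chromosome 5, 24364810 to 24384474, plus strand, 26 exons) had 732, 569 and 624 CPM in repletion libraries, against 571, 643 and 692 CPM in control libraries. The highest and the lowest library were both in the repletion group. Nos3 averaged 642 ± 82.7 CPM in the repletion group and 635 ± 60.7 CPM in the control group, a log2 fold change of 0.01 ± 0.11 (SE; 95% interval -0.22 to 0.25), with an edgeR adjusted p of 0.935, and 98.7% of tested features had a lower mean level. The gene overlaps antisense genes, and the strand setting of the counting is not given in the sources used here. Of its 4132 exonic bases, 294 are shared with Atg9b, listed with 3565, 2600 and 2585 counts in repletion libraries and 2373, 2958 and 2842 counts in control libraries. A further 1040 are shared with the antisense gene Gm15587, which fell: it had 224, 144 and 149 counts in repletion libraries, against 505, 498 and 557 counts in control libraries (log2 fold change -1.62, edgeR adjusted p 1.8e-06).

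Gch1 and Qdpr, genes that serve the cofactor of the synthase, were lower, while Nos3 did not pass the test. Of 33 nitric oxide pathway genes other than Nos3, 28 were tested, 4 rose, 7 fell and 17 did not pass. Of all tested features 20.5% rose and 19.2% fell, so these counts show nothing particular to the list. Its median log2 fold change was -0.16. NOS3 needs the cofactor tetrahydrobiopterin. Gch1, the rate-limiting enzyme of its synthesis, had 864, 874 and 819 counts in repletion libraries, against 1238, 1186 and 1394 counts in control libraries. It averaged 51.5 ± 3.13 CPM in the repletion group and 78.1 ± 2.62 CPM in the control group, a log2 fold change of -0.60 ± 0.11 (SE) and an edgeR adjusted p of 3.8e-04. Qdpr, which regenerates the cofactor, averaged 184 ± 13.1 CPM in the repletion group and 326 ± 29.0 CPM in the control group, a log2 fold change of -0.82 (edgeR adjusted p 1.5e-05). Pts, the second enzyme of synthesis, had a log2 fold change of -0.63 (edgeR adjusted p 0.0332). Spr, the last enzyme of synthesis, had a log2 fold change of -0.08 and did not pass (edgeR adjusted p 0.639). Slc7a1, Ass1, Asl, Ddah2 and Gchfr, other genes of the list, did not pass (edgeR adjusted p 0.595, 0.0726, 0.117, 0.666 and 0.756). These genes, Pts and Spr were named, and the cofactor subgroup was formed, after their values were seen.

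Genes of proteins that bind the synthase differed in direction or did not pass. Cav1, whose product holds NOS3 inactive in caveolae, averaged 688 ± 63.7 CPM in the repletion group and 438 ± 22.9 CPM in the control group, a log2 fold change of 0.65 (edgeR adjusted p 1.1e-04). The chaperone gene Hsp90aa1, named after its value was seen, had a log2 fold change of -0.50 (edgeR adjusted p 5.2e-04). Nostrin, Nosip and Dynll1, also named after their values were seen, did not pass (edgeR adjusted p 0.340, 0.432 and 0.775). Arg1, an arginase that competes for the substrate arginine, was listed with 17, 10 and 12 counts in repletion libraries and 0, 0 and 5 counts in control libraries. It passed (log2 fold change 2.86, edgeR adjusted p 0.0209) but not without control replicate 1 (0.0900) or 2 (0.103) or repletion replicate 1 (0.0658) or 3 (0.0618), and the fitted value was 6.68 without control replicate 3. Over the alternatives that gave a value, its adjusted p was 0.00452 to 0.103. Ddah1, which degrades the natural synthase inhibitor ADMA, stood at 3.13 ± 0.965 CPM in the repletion group and 2.07 ± 0.587 CPM in the control group and did not pass (edgeR adjusted p 0.226).

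The flow-responsive transcription factor genes Klf2 and Klf4, which drive Nos3 and restrain Edn1 in endothelium, each had their highest repletion value in library 1. Klf4 fell, at 44.9 ± 14.3 CPM in the repletion group and 64.4 ± 9.77 CPM in the control group (log2 fold change -0.52, edgeR adjusted p 0.0255), with overlapping groups. That call was lost with library size only (0.0556), without control replicate 2 (0.122), and without repletion replicate 2 (0.0763) or 3 (0.151), and the log2 fold change was -0.81 without repletion replicate 1. Over the 16 alternatives its adjusted p was 1.1e-04 to 0.151. Klf2 had 4283, 2015 and 2148 counts in repletion libraries, against 2308, 2309 and 2499 counts in control libraries. Repletion library 1 alone was high, and the log2 fold change of 0.21 (edgeR adjusted p 0.396) was -0.19 without it.

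**Figure D3:**
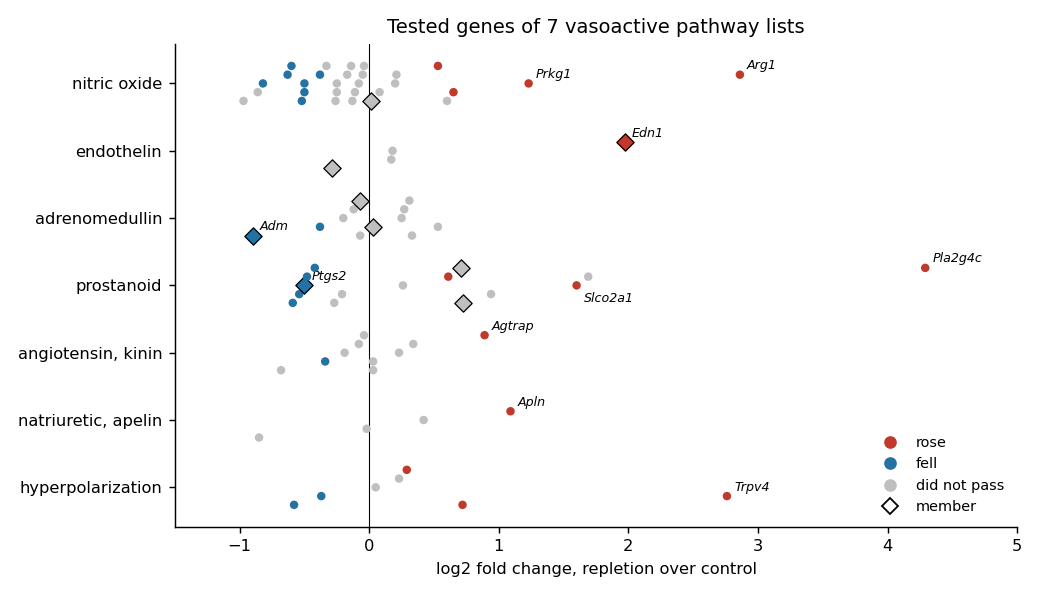
Log2 fold change, repletion over control, of every tested gene of 7 vasoactive pathway lists; diamonds are members, circles other genes of the list, and colour marks genes that rose, fell or did not pass at an adjusted p of 0.05. Genes that rose and genes that fell occur in the nitric oxide, prostanoid, angiotensin and kinin, and hyperpolarization lists.

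The angiotensin-converting enzyme gene was close to the limit of detection. Ace (ENSMUSG00000020681, chromosome 11, 105967945 to 105989964, plus strand) had 7, 6 and 6 counts in repletion libraries, against 0, 1 and 7 counts in control libraries. The level of control library 3 lay inside the repletion range, and the filter on low counts removed the gene, so no fold change is given. Other parts of the system were likewise at or near 0: Agtr1a, an angiotensin II receptor gene, had no count, and Bdkrb2, a bradykinin receptor gene, had 2 counts in all. Of 27 angiotensin and kinin genes other than Ace, 10 were tested, 1 rose and 1 fell, beside 20.5% and 19.2% of all tested features, with a median log2 fold change of -0.01. Agtrap, which promotes internalization of the angiotensin receptor, averaged 21.9 ± 5.77 CPM in the repletion group and 11.8 ± 1.56 CPM in the control group (log2 fold change 0.89, edgeR adjusted p 0.0016). Thop1, a peptidase that cleaves bradykinin and angiotensin I, had a log2 fold change of -0.34 (edgeR adjusted p 0.0421). It lost the call under 7 of 16 alternatives, among them the replicate block (0.0548) and library size only (0.101), and without any 1 of control replicates 1 to 3 or repletion replicates 2 and 3 (0.0631 to 0.157), with a range of 0.00268 to 0.157 over all of them.

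Apelin, another vasodilator peptide, moved in the direction opposite to Adm. Apln, an abundant gene here, had 20233, 18882 and 20818 counts in repletion libraries, against 9362, 8705 and 9607 counts in control libraries. It averaged 1205 ± 35.9 CPM in the repletion group and 567 ± 24.5 CPM in the control group, a log2 fold change of 1.09 ± 0.09 (SE) and an edgeR adjusted p of 3.2e-07. Of the 10 natriuretic peptide and apelin genes, 4 were tested, and Apln was the 1 that passed, beside 20.5% of all tested features that rose. Of 15 genes of endothelial calcium entry and hyperpolarization, 7 were tested, 3 rose and 2 fell, beside 20.5% and 19.2% of all tested features. Trpv4, a calcium channel gene, had 22, 53 and 43 counts in repletion libraries, against 2, 7 and 8 counts in control libraries (log2 fold change 2.76, edgeR adjusted p 0.00159). Itpr1, a calcium release channel gene, had a log2 fold change of 0.72 (edgeR adjusted p 1.5e-04), but 0.25 with the length trend taken out (0.0628) and 0.26 with that of GC content taken out too (0.0531). Its adjusted p was 1.6e-07 to 0.0628 across the 16 alternatives. Cyp2j6, a cytochrome P450 epoxygenase gene, fell by 0.58 on the log2 scale (edgeR adjusted p 0.00128). Piezo1, a mechanically gated channel gene, had a log2 fold change of -0.37 (edgeR adjusted p 0.0436), with overlapping groups. It did not pass under 6 of 16 alternatives, among them the replicate block (0.0862), library size only (0.101) and omission of control replicate 2 (0.227) or 3 (0.107) or repletion replicate 2 (0.115) or 3 (0.140), with a range of 2.1e-04 to 0.227, and it shares 2441 exonic bases with Ctu2.

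Per kilobase of exon, the order of the members' mean levels differed between the groups at Edn1 and Ramp2 and at Adm and Ptgs2. Of the 3301 exonic bases of Ramp2, 1103 are shared with Vps25. The place of Ramp2 in the order, and its change of place with Edn1, are therefore uncertain. Of the 4132 exonic bases of Nos3, 1040 are shared with Gm15587 and 294 with Atg9b, both on the opposite strand. With the strand setting not given, the size of the Nos3 level is uncertain too. In the repletion group Nos3 was highest at 155 ± 20.0 CPM per kilobase, followed by Ptgs2 at 43.3 ± 10.8, Adm at 42.4 ± 6.07, Ece1 at 18.6 ± 3.58, Edn1 at 17.5 ± 4.06 and Ramp2 at 15.5 ± 1.55 CPM per kilobase. Calcrl, Ptgis, Ptgs1 and Ace followed at 1.2 ± 0.415, 0.944 ± 0.168, 0.575 ± 0.0985 and 0.0722 ± 0.00471 CPM per kilobase. In the control group the order was Nos3 at 154 ± 14.7, Adm at 79.3 ± 5.63, Ptgs2 at 61.4 ± 5.15, Ece1 at 22.8 ± 4.69, Ramp2 at 16.3 ± 1.89 and Edn1 at 4.47 ± 1.36 CPM per kilobase. Calcrl, Ptgis, Ptgs1 and Ace again came last, at 1.18 ± 0.205, 0.581 ± 0.406, 0.348 ± 0.106 and 0.0294 ± 0.0411 CPM per kilobase. In the repletion group the neighbours Ptgs2 and Adm, Ece1 and Edn1, Edn1 and Ramp2, and Calcrl and Ptgis had overlapping ranges over the 3 libraries. In the control group the overlapping neighbours were Ece1 and Ramp2, Calcrl and Ptgis, and Ptgis and Ptgs1.

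Ratios between members of a library do not depend on how libraries are scaled. The ratio of Edn1 to Adm, in CPM per kilobase, was 0.331, 0.462 and 0.445 in repletion libraries, against 0.0803, 0.0512 and 0.0397 in control libraries. The ratio of Edn1 to Nos3 was 0.0774, 0.124 and 0.144 in repletion libraries, against 0.0426, 0.0278 and 0.0190 in control libraries. Its size rests on the Nos3 level, which is uncertain through the bases shared with Gm15587 and Atg9b. Every repletion library was above every control library for both ratios. For Edn1 to Adm this had to follow, because every repletion library was above every control library for Edn1 and below for Adm. It adds nothing to the values of the single genes. The ratio of Ece1 to Edn1 was 1.57, 0.857 and 0.902 in repletion libraries, against 2.97, 6.05 and 7.80 in control libraries. The ratio of Ptgs2 to Ptgs1 was 83.7, 70.5 and 70.2 in repletion libraries, against 273, 131 and 167 in control libraries, all resting on the few Ptgs1 counts. The ratio of Ramp2 to Calcrl was 20.0, 8.66 and 13.7 in repletion libraries, against 18.4, 10.5 and 14.0 in control libraries, and the groups overlap. The size of that ratio rests on the uncertain Ramp2 level. These pairs were chosen with the members' values known, and the ratios were not tested.

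**Figure D4:**
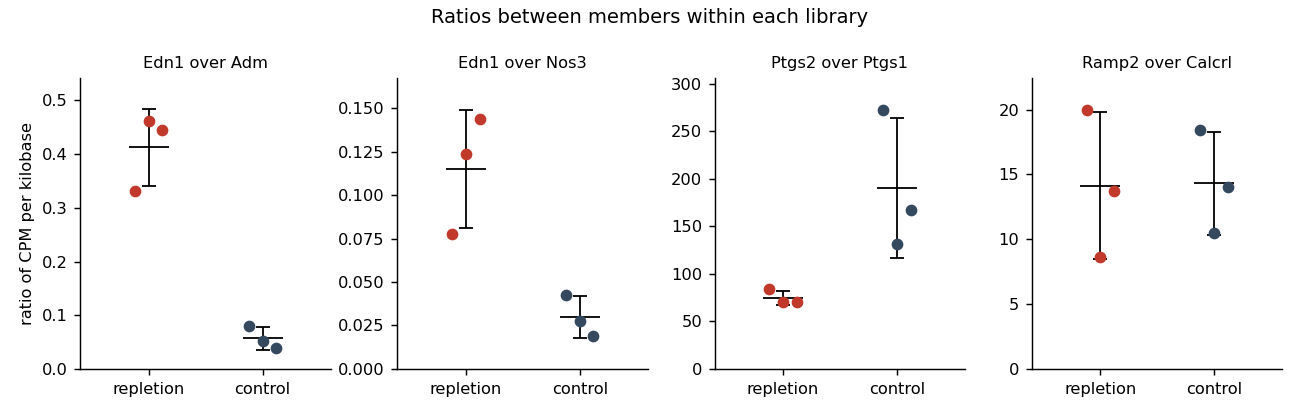
Ratio of 2 members' CPM per kilobase within each library, on linear axes from 0; points are libraries, horizontal lines means and error bars the SD over 3 libraries. The ratio of Edn1 to Adm averages 0.412 in repletion libraries and 0.0571 in control libraries, and that of Ramp2 to Calcrl 14.1 and 14.3.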

How the data were processed

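RNA-seq of 6 endothelial cell samples, 3 per group, was analysed from one table. Per the submitters' processing notes, HISAT2 2.0.5, featureCounts 1.5.0-p3, DESeq2 1.20.0 and GRCm38.p6 were used, with no roles stated; how the counting treated strand, and which annotation it used, is not given in the sources used here. The deposited values are raw read counts per feature, and these entered the tests. The authors' deposited FPKM values were proportional to count over feature length. The authors' scaled group means (signal), log2 fold changes and p-values were used as their own values. Of the Ensembl gene identifiers, 99.8% occur in GENCODE mouse release 21, from which exon overlaps were taken.

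Counts were tested with edgeR 4.0.16 (R 4.3.3; quasi-likelihood, TMM, Benjamini-Hochberg adjustment) after filterByExpr with a minimum count of 10, which left 13804 features. The SD is over 3 samples per group. The SE of a log2 fold change comes from edgeR's quasi-likelihood fit, whose variance draws on all tested features. The depth allows a floor of 3 counts where none was seen, and intervals and floors of single libraries cover counting error only. Tested on simulated data of this comparison with 13804 genes, the test recovered 35.8% of genes changed 1.5-fold, 65.7% changed 2-fold and 78.8% changed 4-fold, with 9 false calls. The simulation changed 67, 67 and 66 genes at these sizes, far fewer than were called in the data. These shares and false calls may therefore not carry over to the data. Alternatives used other normalizations and filters, DESeq2 1.42.0, limma-voom 3.58.1, a replicate block, omission of each library, and removal of length and GC trends (mgcv 1.9.3). Near-identical copies were sought with BLAST 2.17.0 at 95% identity over 30% of a transcript.

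Members and lists were chosen with earlier results of these data known. The named genes are the members, up to 2 genes per list and direction with the smallest p among those past the threshold, and Klf2, Klf4, Ddah1, Gch1, Ednra, Ednrb, Ramp3, Ptges, Ptgir, Slco2a1, Pla2g4a, Agtr1a and Bdkrb2, with some genes not reported here; other names were chosen after their values were seen.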

Additional observations from a re-analysis of the deposited data

How the results depend on the processing

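Under the 16 alternatives, Edn1 and Adm kept their direction and their call, with log2 fold changes of Edn1 between 1.77 and 2.20. Members that fell numbered 1 to 3 with a library left out, against 2 with all libraries. The labels do not say whether same-numbered samples were paired. Correlations of deviations from the group means were -0.144, -0.095 and 0.056 for same-numbered samples and -0.096 to 0.167 for the others. With 3 libraries per group, these correlations cannot decide whether same-numbered samples shared a batch. With the replicate block, 2485 features rose and 2353 fell, and the numbers of members called were the same, 1 and 2. Thop1 and Piezo1 lost their calls under it.

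Values near 0 changed sign. Nos3 was at -0.02 with no filter, -0.03 without the length trend, -0.04 without the length and GC trend, and -0.09 to 0.09 with a library left out. Calcrl was at -0.01 with no filter, -0.02 with limma-voom, -0.00 with the replicate block, -0.03 and -0.12 without the length and the length and GC trends, and -0.29 to 0.21 with a library left out. With a library left out, Klf2 lay between -0.19 and 0.37 and Ptges between -0.48 and 0.04. The cause was not tested.

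List counts, members aside, moved by 1 to 3 genes. With a library left out, 1 to 4 nitric oxide genes rose (4 with all), 0 to 1 adrenomedullin genes rose (0) and 0 to 1 fell (1), 2 to 4 prostanoid genes fell (4), 1 to 2 angiotensin and kinin genes rose (1) and 0 to 1 fell (1), 0 to 1 natriuretic and apelin genes fell (0), and 1 to 2 hyperpolarization genes fell (2). With no filter, 1 endothelin, 1 adrenomedullin and 2 angiotensin and kinin genes rose and 1 natriuretic and apelin gene fell; that setting moved the median log2 fold change of all features to 0.13. With library size only, 5 prostanoid and 2 angiotensin and kinin genes rose, and 0 angiotensin and kinin genes and 1 hyperpolarization gene fell. With limma-voom, 5 prostanoid genes rose. With the replicate block, 0 angiotensin and kinin genes, 1 natriuretic and apelin gene and 1 hyperpolarization gene fell. Without the length trend, 2 nitric oxide genes and 1 hyperpolarization gene rose, and 3 adrenomedullin and 2 angiotensin and kinin genes fell; without the length and GC trend these were 2, 1, 2 and 4. Depth limits Ace, Ptgs1, Ptgis and Calcrl, whose counts were between 0 and 129 per library.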
